A study of Mus musculus with 20 samples.

Results

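Retinas of mice that lack the transcription factor Nrl were compared at 4 months and at 1 month of age, with 4 arrays titled for each age (8 of the 20 arrays of the series, which also holds 2, 6 and 10 months). All of these mice, at both ages, were homozygous knockouts (Nrl-/-) on the C57Bl/6J strain, each sample was RNA from both retinas of 1 mouse, and no other treatment is named in the labels. The whole series holds no wild-type retina, so what belongs to the loss of Nrl and what belongs to growth and ageing of any mouse cannot be told apart here. The arrays were Affymetrix exon arrays hybridised with sense-strand cDNA made from RNA depleted of ribosomal RNA.

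Nrl directs photoreceptor precursors to become rods. Without it, the precursors of the mouse retina become cells that resemble cones, with short and disordered outer segments, and some of them degenerate in young animals while the layers of the retina rearrange. Outer segments are rebuilt throughout life behind a connecting cilium, bipolar cells take the signal from the photoreceptor's ribbon synapse, and Muller glia and the vessels of the inner retina keep the tissue supplied. The comparison asks which of these systems differed after the young phase, apart from the glial and complement genes.

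Levels are log2 intensities per gene, and the differences are 4 months minus 1 month, with 4 mice of each age. Their standard errors (SE) are limma's and rest on the spread within ages over all 20 arrays, not these 8 alone. Each adjusted p is limma's too, by the Benjamini-Hochberg method over all genes tested. Of 11836 genes tested, 1795 (15.2%) passed the threshold of 0.05, among them 817 that were higher at 4 months (6.9%) and 978 that were lower (8.26%). In 1482 genes (12.5%) the difference passed and the 4 arrays of one age all lay above the 4 of the other. Most differences were small: 170 genes (1.44%) passed with a change of at least 1.5-fold, and the median difference over all genes tested was 0.01. The array of replicate 4 at 4 months stood somewhat apart, correlating with the others at 0.960 on average against 0.969 to 0.981 for the rest, and without it 1738 genes passed (828 higher, 910 lower). Each array measured whole retina, so for every gene below fewer cells of a type and less RNA per cell cannot be told apart.

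**Figure D1:**
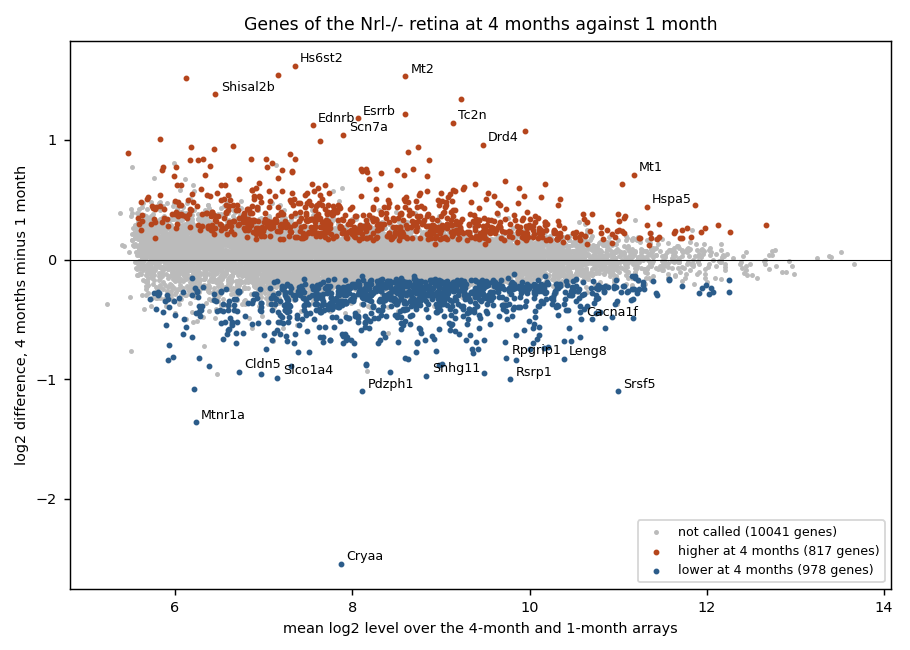
Each point is 1 of the 11836 genes tested. The x axis gives its mean log2 level over the 8 arrays and the y axis its log2 difference, 4 months minus 1 month. Red points are the 817 genes called higher and blue points the 978 called lower. Cryaa lies lowest at -2.54 and Hs6st2 highest at 1.62.

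Cone genes were bright at both ages. Part of them fell, with 0 rises and 3 falls among 13 tested cone phototransduction and channel genes, where 8.26% of all genes fell. Opn1sw, the short-wavelength cone opsin, measured 13.64 ± 0.05 at 4 months and 13.68 ± 0.03 at 1 month (SD, n = 4 each), and Gnat2, the cone transducin subunit, 12.92 ± 0.05 at 4 months and 12.94 ± 0.06 at 1 month. Neither passed the test (adjusted p = 0.63 for Opn1sw and 0.892 for Gnat2). Opn1mw, the middle-wavelength opsin, differed by -0.09 ± 0.06 (SE, adjusted p = 0.338). Nrl itself measured 6.10, 6.15, 6.09 and 6.53 in the 4-month retinas and 6.27, 6.38, 6.06 and 6.16 in the 1-month retinas, close to the limit of 5.61, the mean level over all arrays under which genes were not tested. Where its probe sets lie relative to the deleted part is not given, so its level here says nothing of the genotype.

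The largest rise among named genes was that of Hs6st2, the enzyme that adds sulfate at the 6-O position of heparan sulfate. It measured 8.12, 8.20, 8.21 and 8.12 at 4 months and 6.63, 6.59, 6.28 and 6.66 at 1 month. The groups lay far apart, with a difference of 1.62 ± 0.07 (SE, adjusted p = 3.89e-11), a 3.07-fold change, and all of its 7 probe sets showed it. In the list of heparan sulfate enzymes 3 of 21 tested members rose and 1 fell, or 19% called, near the 15.2% of all genes, and the median difference was 0.01. The fall was lost without replicate 2 of 1 month, and 2 members fell without replicate 1 of 4 months. Beside Hs6st2, Glce, the epimerase that converts glucuronic to iduronic acid, rose by 0.56 ± 0.11 (adjusted p = 0.00173), and Sulf1, an extracellular enzyme that removes 6-O-sulfates, by 0.46 ± 0.08 (adjusted p = 0.000482). The 11 tested core proteins that carry heparan sulfate had differences of -0.19 to 0.31, and limma called 0 of them (1 without replicate 4 of 4 months).

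Esrrb, an orphan nuclear receptor that supports rod survival in normal mouse retina, measured 8.71, 8.66, 8.62 and 8.61 at 4 months and 7.62, 7.44, 7.35 and 7.47 at 1 month. The difference was 1.18 ± 0.08 (SE, adjusted p = 6.19e-08), with 14 of its 15 probe sets apart in the same direction. Tc2n, a protein with C2 domains, was higher by 1.14 ± 0.14 (adjusted p = 3.36e-05) and Scn7a, a sodium channel found in glia, by 1.04 ± 0.12 (adjusted p = 1.77e-05), the last in all of its 27 probe sets. Among the first ranks were also a membrane and a ubiquitin-ligase gene. Shisal2b, of the shisa family, rose by 1.38 ± 0.11 (adjusted p = 7.05e-07) and Fbxw21, an F-box protein, by 1.54 ± 0.17 (adjusted p = 9.58e-06). Fbxw21 belongs to a cluster of near-identical mouse genes, so its probe sets may read a neighbour too. Further rises were those of Etnppl, which breaks down phosphoethanolamine (0.99 ± 0.09), Gna14, a G protein alpha subunit (0.95 ± 0.09), Fam107a, an actin-associated stress protein (0.88 ± 0.20), Arrdc2, an alpha-arrestin (0.84 ± 0.12), Hif3a, a hypoxia-inducible factor subunit (0.84 ± 0.09), Aass, of lysine breakdown (0.83 ± 0.10), Scara3, a scavenger receptor (0.83 ± 0.08), and F2rl1, a protease-activated receptor (0.81 ± 0.14). In all 8 of these the arrays of the ages did not overlap. On the brightest probe set alone Arrdc2, Hif3a, Scara3 and F2rl1 missed the threshold (adjusted p = 0.577, 0.0592, 0.108 and 0.0701).

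Among the largest falls apart from lens crystallins were genes with no shared role. Pdzph1, a protein with PDZ and pleckstrin homology domains, measured 7.35, 7.88, 7.55 and 7.46 at 4 months and 8.79, 8.67, 8.62 and 8.58 at 1 month. Every 4-month array lay below every 1-month array, a fall of 1.10 on the log2 scale (SE 0.14, adjusted p = 4.88e-05), which its brightest probe set did not show (-0.22, adjusted p = 0.479). Pnpla3, a lipid hydrolase, fell by 0.95 (SE 0.10), Glmn, a partner of cullin ligases, by 0.94 (SE 0.13), Acrbp, known from sperm as an acrosin-binding protein, by 0.89 (SE 0.16), Tnfsf12, the cytokine TWEAK, by 0.88 (SE 0.14), Abhd14b, a hydrolase, by 0.78 (SE 0.11), and Moxd1, a relative of dopamine beta-hydroxylase, by 0.75 (SE 0.08). In these 6 genes the ages did not overlap.

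Genes that act on RNA splicing gave the list with the largest share of falls among those of at least 10 tested genes. Of 28 tested SR proteins, their kinases and related splicing factors, 16 fell and 0 rose, against 8.26% of all genes that fell, and the median difference was -0.24 against 0.01 over all genes. SR proteins bind exons and recruit the spliceosome, and the CLK and SRPK kinases phosphorylate them. The mean level of the list was 9.40, 9.38, 9.45 and 9.27 at 4 months and 9.72, 9.66, 9.77 and 9.59 at 1 month, without overlap. With any 1 of the 8 arrays left out, 12 to 16 members fell.

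Srsf5, the SR protein with the largest fall, measured 10.28, 10.45, 10.50 and 10.55 at 4 months and 11.55, 11.59, 11.88 and 11.17 at 1 month. Its level at 4 months was 0.467 of that at 1 month (difference -1.10 ± 0.13 SE, adjusted p = 1.85e-05), and the arrays were apart in all 7 of its probe sets. Rsrp1, an arginine and serine rich protein, measured 9.35, 9.22, 9.43 and 9.13 at 4 months and 10.48, 10.36, 10.30 and 9.99 at 1 month (difference -1.0 ± 0.11 SE, adjusted p = 1.1e-05). Luc7l3, a component linked to 5′ splice site recognition, fell by 0.74 (SE 0.13, adjusted p = 0.00089). All of the 14 probe sets of Rsrp1 and the 15 of Luc7l3 had lower means at 4 months.

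All 4 kinases with a CLK name were called, among them Clk4, which fell by 0.65 (SE 0.10, adjusted p = 0.000379), and Clk2, by 0.47 (SE 0.09, adjusted p = 0.0018). Srpk3, an SR protein kinase, fell by 0.46 (SE 0.09, adjusted p = 0.00176), though not on its brightest probe set (adjusted p = 0.358). In 14 of the 16 called members the lowest of the 1-month arrays was replicate 4, and in 10 of them the lowest of the 4-month arrays was also replicate 4. Without replicate 4 of 1 month 16 members fell, and without replicate 4 of 4 months 12 did.

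Among 22 tested hnRNPs and cold-inducible RNA-binding proteins 4 fell and 0 rose (median -0.09), where 8.26% of all genes fell. In 7 of the 22, called or not, every 4-month array lay below every 1-month array, and in 0 above. Over all genes this was counted only together with the call (12.5% in either direction), so the shares are not alike. The mean level of the list overlapped, with 9.59 to 9.85 at 4 months and 9.82 to 9.94 at 1 month. The count of falls was 2 without replicate 1 or 2 of 1 month or replicate 4 of 4 months, the last with 1 rise. Hnrnpdl, an RNA-binding protein that controls its own splicing, measured 8.69, 8.46, 8.81 and 8.35 at 4 months and 9.64, 9.39, 9.51 and 9.25 at 1 month. Its mean was lower at 4 months in each of its 6 probe sets, by -1.39 to -0.08, and the brightest of them showed the least (adjusted p = 0.517). Rnpc3, a protein of the minor spliceosome, fell by 0.77 (SE 0.13, adjusted p = 0.000728), Ttc14, a tetratricopeptide protein, by 0.83 (SE 0.12, adjusted p = 0.000191), and Leng8, linked to mRNA export, by 0.83 (SE 0.17, adjusted p = 0.00228).

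Of 6 tested snoRNA hosts and long noncoding genes 3 fell and 0 rose (median -0.31), where 8.26% of all genes fell. The mean level of this list was 8.21 to 8.36 at 4 months and 8.51 to 8.82 at 1 month. Meg3, an imprinted noncoding RNA that stays in the nucleus, measured 9.22, 9.44, 9.46 and 9.59 at 4 months and 10.22, 10.23, 10.61 and 9.99 at 1 month. Snhg11 measured 8.20, 8.32, 8.27 and 8.62 at 4 months and 9.29, 9.48, 9.49 and 9.05 at 1 month. Both were lower in every 4-month array, by 0.84 (SE 0.15, adjusted p = 0.000769) for Meg3 and by 0.97 (SE 0.17, adjusted p = 0.00069) for Snhg11, and Snhg16 fell by 0.43 (SE 0.11, adjusted p = 0.0122). Snhg16 missed the threshold with the mean of its probe sets (adjusted p = 0.116). Among 21 tested cytosolic ribosomal protein genes 2 rose and 4 fell, or 28.6% called against 15.2% of all genes. The values of Rps13 (-0.96 ± 0.29), Rps25 (-0.88 ± 0.15) and Rplp0 (-0.65 ± 0.17) rest on 1, 1 and 2 probe sets, and such genes have many processed copies in the genome that probes may not tell apart. The call of Rps13 was lost without replicate 1, 2 or 3 of 1 month or replicate 1 or 3 of 4 months, with adjusted p of up to 0.113. With replicate 2 or 4 of 1 month or replicate 3 of 4 months left out, 1 ribosomal gene rose in place of 2.

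**Figure D2:**
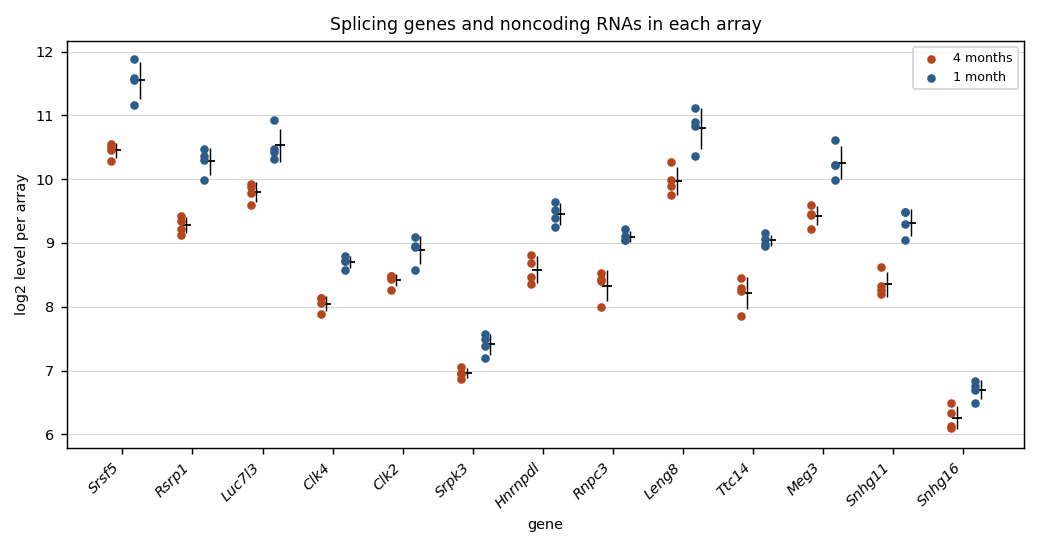
Log2 levels of 13 genes of splicing and of noncoding RNAs. Each point is 1 array, red for 4 months and blue for 1 month, with 4 arrays per age, and the black bar gives the mean ± SD. Srsf5 lies between 10.28 and 10.55 at 4 months and between 11.17 and 11.88 at 1 month, and the ages are apart in the other genes too, most narrowly in Snhg16.

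Among photoreceptor genes, part of those of the disc and the connecting cilium fell. Of 26 tested genes of the outer segment disc and connecting cilium 9 fell and 0 rose (median difference -0.14), and of 34 tested genes of transport in cilia 8 fell and 0 rose (median -0.12), where 8.26% of all genes fell. The first count was 5 without replicate 1 or 2 of 1 month or replicate 2 of 4 months. The second was 3 with the arrays of these 2 ages alone, 3 without replicate 1 of 1 month and 5 without replicate 2, 3 or 4 of 4 months. Both lists were lowest in replicate 4 of 4 months (mean levels 9.43 and 8.49), and without that array 8 of the 26 and 5 of the 34 fell.

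Rpgrip1, which anchors the retinitis pigmentosa GTPase regulator at the connecting cilium, measured 9.30, 9.32, 9.49 and 9.18 at 4 months and 10.15, 10.04, 10.34 and 10.06 at 1 month. The difference was -0.82 ± 0.08 (SE, adjusted p = 3.84e-06), the largest fall of the list, with all 29 probe sets lower and 26 of them apart. Fam161a, a protein of the ciliary base, fell by 0.45 (SE 0.07, adjusted p = 0.000272), Prom1, which shapes the disc rim, by 0.39 (SE 0.07, adjusted p = 0.000526), and Ttc8, a subunit of the BBSome coat complex, by 0.35 (SE 0.06, adjusted p = 0.00122). Bbs2, another BBSome subunit, fell by 0.38 (SE 0.07, adjusted p = 0.000881), Lca5, a ciliary protein named for its disease, by 0.33 (SE 0.07, adjusted p = 0.00466), and Ift122, of the retrograde transport complex, by 0.25 (SE 0.05, adjusted p = 0.00117). On the brightest probe set alone Prom1 and Ift122 missed the threshold (adjusted p = 0.0656 and 0.18), and with the mean of the probe sets Lca5 did (adjusted p = 0.195).

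In the list of cone phototransduction and channel genes the mean level was 11.52 to 11.61 at 4 months and 11.65 to 11.75 at 1 month. Of its 13 tested genes 3 fell and 0 rose (median -0.10), where 8.26% of all genes fell. These were Arr3, cone arrestin (-0.27 ± 0.07 SE, adjusted p = 0.0107), Gngt2, the cone transducin gamma subunit (-0.30 ± 0.08, adjusted p = 0.0146), and the calcium channel gene Cacna1f described below, and the call of Gngt2 was lost on its brightest probe set (adjusted p = 0.398) and that of Arr3 with the arrays of these 2 ages alone (adjusted p = 0.0692). Pde6c, the cone phosphodiesterase, measured 12.49 ± 0.10 at 4 months and 12.64 ± 0.06 at 1 month (SD, n = 4 each) and was not called (adjusted p = 0.0984). All of its 22 probe sets were lower at 4 months, and after quantile normalization limma called it lower (-0.13, adjusted p = 0.0461). Of 13 tested genes of phototransduction shutoff and calcium feedback 2 rose and 2 fell, or 30.8% called against 15.2% of all genes. With 1 array left out 1 or 2 rose and 1 or 2 fell. Guca1b, which activates guanylate cyclase when calcium is low, fell by 0.54 (SE 0.11, adjusted p = 0.00241). Gnb5, the beta subunit that stabilises the RGS9 complex, rose by 0.23 (SE 0.05, adjusted p = 0.00324), but not on its brightest probe set (adjusted p = 0.112).

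Pde6b, a subunit of the rod phosphodiesterase that is still transcribed without Nrl, measured 8.48, 8.44, 8.32 and 8.32 at 4 months and 9.11, 9.06, 9.05 and 9.11 at 1 month. The ages were 0.69 apart (difference -0.69 ± 0.11 SE, adjusted p = 0.00039), and all of its 24 probe sets were lower at 4 months. Transcription factors of photoreceptors moved both ways, with 4 of 18 tested members higher and 4 lower, or 44.4% called against 15.2% of all genes. Of them 2 were lower without replicate 1 of 1 month or, among the 4-month arrays, without replicate 2. Beside Esrrb, the higher ones were Samd7, a repressor of the polycomb type (0.54 ± 0.15), Mef2c (0.53 ± 0.07) and Thrb, the thyroid hormone receptor needed for the middle-wavelength opsin (0.38 ± 0.06). Samd7 was not called without replicate 1 of 4 months (adjusted p = 0.0508), and the brightest probe set of Mef2c gave -0.02. Prdm1, which holds photoreceptor precursors from the bipolar fate in development, fell by 0.41 (SE 0.11, adjusted p = 0.0156).

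Around the outer segments, Impg1, a proteoglycan of the interphotoreceptor matrix, measured 9.75, 9.62, 9.84 and 9.34 at 4 months and 10.37, 10.16, 10.20 and 10.19 at 1 month. Nxnl2, the gene of the second rod-derived cone viability factor, measured 9.09, 9.04, 9.03 and 9.05 at 4 months and 9.85, 9.79, 9.78 and 9.54 at 1 month. Both fell with no overlap, Impg1 by 0.59 (SE 0.13, adjusted p = 0.0043) and Nxnl2 by 0.69 (SE 0.07, adjusted p = 2.27e-06). Efemp1, the matrix protein fibulin-3, rose by 0.61 (SE 0.11, adjusted p = 0.00131). In this list 2 of 9 tested genes rose and 3 fell, or 55.6% called against 15.2% of all genes. Of its members 1 rose without replicate 1 of 1 month or replicate 2 or 3 of 4 months.

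At the ribbon synapse the clearest fall was in the calcium channel that triggers release. Cacna1f, its pore subunit, measured 10.32, 10.34, 10.32 and 10.33 at 4 months and 10.84, 10.85, 10.96 and 10.67 at 1 month. The 4-month arrays lay within 0.02 of each other and below all 1-month arrays (difference -0.50 ± 0.08 SE, adjusted p = 0.000262), and all 48 probe sets were lower, 44 of them without overlap. Cacnb2, the beta subunit that brings the channel to the membrane, fell by 0.33 (SE 0.05, adjusted p = 0.000436). Over the list of 28 tested synapse genes 2 rose and 7 fell (32.1% called against 15.2% of all genes), with a median of -0.01. With only the arrays of these 2 ages 0 rose and 3 fell. Without replicate 1 or 3 of 1 month or replicate 2 of 4 months 4 fell, 0 rose without replicate 3 of 1 month or replicate 2 or 3 of 4 months, and 1 rose without replicate 2 or 4 of 1 month or replicate 1 of 4 months.

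On the other side of that synapse, 12 of 31 tested bipolar cell genes rose and 4 fell, where 6.9% of all genes rose and 8.26% fell, with a median difference of 0.16 against 0.01 over all genes. The mean level of the list was 9.58, 9.54, 9.57 and 9.56 at 4 months and 9.45, 9.43, 9.40 and 9.41 at 1 month. With 1 array left out 8 to 11 rose, 8 of them without replicate 3 of 1 month or of 4 months. On the brightest probe set 6 rose, and with only the arrays of these 2 ages 7 rose and 1 fell. The falls numbered 0 without replicate 1 or 2 of 1 month or replicate 2 of 4 months, 1 without replicate 3 of 1 month or, among the 4-month arrays, without replicate 4, and 2 without replicate 3 of 4 months.

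Car8, an inactive relative of carbonic anhydrases that marks bipolar cells in mouse, measured 11.38, 11.41, 11.23 and 11.40 at 4 months and 10.69, 10.80, 10.69 and 10.74 at 1 month. It was the largest rise of the list (0.63 ± 0.05 SE, adjusted p = 7.8e-07), and 7 of its 8 probe sets were apart. Tacr3, the neurokinin receptor of OFF bipolar cells, rose by 0.39 (SE 0.07, adjusted p = 0.00102), Gsg1 by 0.38 (SE 0.06, adjusted p = 0.000396), Pcp4l1 by 0.36 (SE 0.07, adjusted p = 0.00228), and Neto1, an auxiliary subunit of glutamate receptors, by 0.35 (SE 0.08, adjusted p = 0.00643). Neto1 overlapped between the ages, with a lowest 4-month array of 8.27 and a highest 1-month array of 8.29. Pcp4l1 and Neto1 missed the threshold on their brightest probe set (adjusted p = 0.261 and 0.0595), and Neto1 also with only the arrays of these 2 ages (adjusted p = 0.0655).

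For other neurons of the inner retina 21.4% of horizontal, 10.7% of amacrine and 3.7% of ganglion cell genes were called, against 15.2% of all genes. Of 14 tested horizontal cell genes 2 rose and 1 fell, of 28 amacrine cell genes 3 rose and 0 fell, and of 27 ganglion cell genes 1 rose and 0 fell. The horizontal cell fall was lost without replicate 1 or 2 of 1 month or replicate 2 or 4 of 4 months, and 2 fell without replicate 3 of 1 month. In ganglion cells 2 rose without replicate 4 of 4 months, and 0 rose without replicate 3 or 4 of 1 month or replicate 1, 2 or 3 of 4 months, where 1 fell without replicate 3 of 1 month and 2 without replicate 1 of 4 months. Onecut2, a factor of horizontal and ganglion cell development, rose by 0.40 (SE 0.08, adjusted p = 0.00172), Prox1, of horizontal and AII amacrine cells, by 0.30 (SE 0.07, adjusted p = 0.00608), and Chat, the enzyme that makes acetylcholine in starburst cells, by 0.24 (SE 0.05, adjusted p = 0.00297). Chat was not called on its brightest probe set (adjusted p = 0.508), nor Prox1 with only the arrays of these 2 ages (adjusted p = 0.065).

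**Figure D3:**
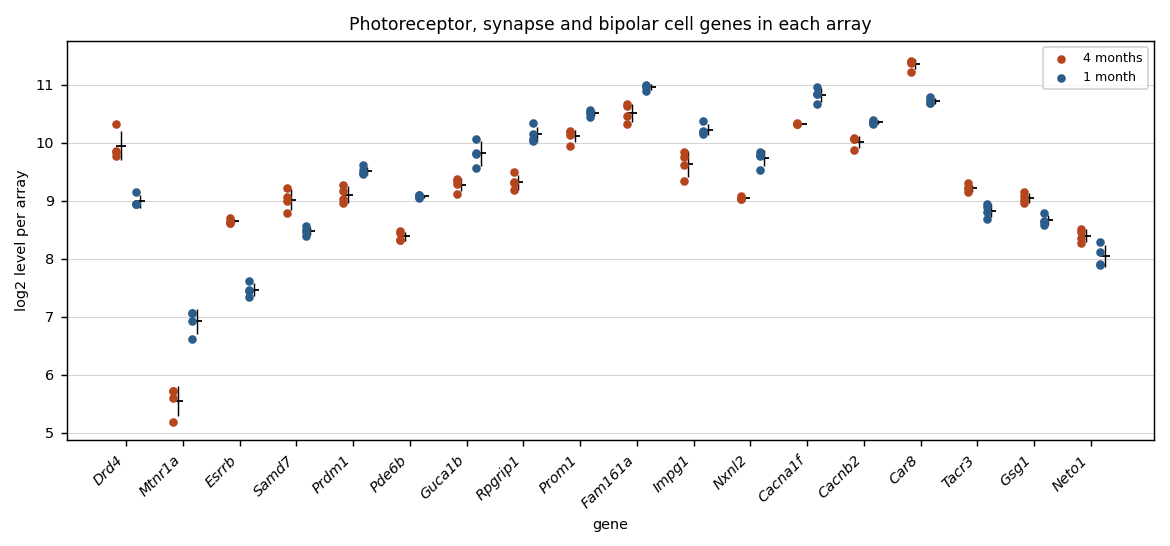
Log2 levels of 18 photoreceptor, synapse and bipolar cell genes. Each point is 1 array, red for 4 months and blue for 1 month, with 4 arrays per age, and the black bar gives the mean ± SD. Drd4, Esrrb, Samd7 and the bipolar genes from Car8 to Neto1 lie higher at 4 months, and the other genes lie lower.

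A pair of receptors through which the retina follows day and night moved in opposite directions. Of 8 tested genes of melatonin and dopamine signalling 3 rose and 1 fell, or 50% called against 15.2% of all genes. With 1 array left out 2 to 4 of them rose and 1 or 2 fell. Of 19 tested circadian clock genes 3 rose and 0 fell, or 15.8%, near the share of all genes. With 1 array left out 1 to 3 clock genes rose and 0 or 1 fell. Drd4, the dopamine receptor of photoreceptors, measured 9.86, 9.77, 9.85 and 10.33 at 4 months and 8.94, 8.94, 9.16 and 8.94 at 1 month. Mtnr1a, a melatonin receptor, measured 5.72, 5.60, 5.18 and 5.72 at 4 months and 6.93, 7.06, 6.61 and 7.07 at 1 month. Drd4 was higher by 0.96 ± 0.19 (SE, adjusted p = 0.00196) and Mtnr1a lower by 1.36 (SE 0.19, adjusted p = 0.000117), each with no overlap of the ages. The 4-month mean of Mtnr1a, 5.55, lay below the limit of 5.61, so the gene was tested through its higher level at other ages and the size of its difference rests on a dim signal. Replicate 4 of 4 months held the highest Drd4, and without it Drd4 was still called, as it was without each other array. Maob, a monoamine oxidase of glia with a 1-month mean of 5.03, also under that limit, rose by 0.89 ± 0.13 (adjusted p = 0.000158), but not on its brightest probe set (adjusted p = 0.0937). The hour at which tissue was taken is not given in the labels, so time of day and age cannot be told apart for such genes.

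Of 26 tested immediate early genes, which respond to neural activity within minutes, 6 fell and 0 rose (median -0.04), where 8.26% of all genes fell. Egr1, a zinc-finger factor induced by light and growth factors, measured 8.08, 8.32, 8.32 and 8.47 at 4 months and 8.67, 8.85, 9.19 and 8.69 at 1 month. The ages were apart (-0.55 ± 0.13 SE, adjusted p = 0.00663), but not called with the mean of the probe sets (adjusted p = 0.16). Dusp1, a phosphatase of MAP kinases, fell by 0.41 (SE 0.09, adjusted p = 0.00343), and Npas4, a neuronal activity factor, by 0.70 (SE 0.20, adjusted p = 0.0246). Npas4 was lost without replicate 2 or 3 of 1 month or of 4 months (adjusted p of up to 0.074). The count of 6 was 2 without replicate 2 or 3 of 1 month or replicate 2 of 4 months, and 3 without replicate 1 of 1 month or replicate 3 or 4 of 4 months.

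Among growth factors and their receptors rises outnumbered falls, with 9 of 48 tested members higher and 1 lower (median 0.12). Of all genes 6.9% rose and 8.26% fell. Ednrb, the endothelin B receptor of Muller glia and vessels, measured 8.14, 8.02, 8.07 and 8.23 at 4 months and 7.14, 6.90, 6.87 and 7.09 at 1 month. Its difference was 1.12 (adjusted p = 0.0104), with an SE of 0.28 that, like every SE here, also holds the spread at the other ages. The arrays of the 2 ages did not overlap, and the brightest probe set of Ednrb gave 0.55 (adjusted p = 0.207). Pgf, placental growth factor, whose 1-month mean of 5.48 lay under the limit of 5.61, rose by 0.77 ± 0.12 (adjusted p = 0.000222), Fgf2, a factor that protects photoreceptors in rodents, by 0.76 ± 0.12 (adjusted p = 0.000257), and Egfr, the receptor of epidermal growth factor, by 0.75 ± 0.08 (adjusted p = 9.58e-06). Cntfr, the receptor subunit for ciliary neurotrophic factor, rose by 0.56 ± 0.06 (adjusted p = 1.77e-05), and Fgfr1 by 0.48 ± 0.08 (adjusted p = 0.000476), the last not on its brightest probe set (adjusted p = 0.0681). The single fall became 2 without replicate 4 of 4 months and 0 without replicate 1 or 4 of 1 month or replicate 3 of 4 months.

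Cells that run short of amino acids or fill their endoplasmic reticulum with unfolded protein switch on sets of genes through short promoter elements, among them the amino acid response element (letters TGATGNAA) bound by ATF4 and the endoplasmic reticulum stress element (letters CCAAT and CCACG with 9 bases of any kind between them). Of 22 tested ATF4 targets 7 rose and 0 fell, where 6.9% of all genes rose, with a median difference of 0.20 against 0.01 over all genes, and 6 or 7 rose with any 1 array left out. Atf4 itself measured 10.35 ± 0.08 at 4 months and 10.33 ± 0.16 at 1 month (SD, n = 4 each) and was not called (adjusted p = 0.918). The promoters of the 4 called genes that hold those letters are shown, since the element is the one ATF4 is known to bind. They are 300 bases of GRCm38.p6 from RefSeq around the annotated start, with the match to TGATGNAA on either strand in capitals.

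Nupr1 promoter, chr7:126625421-126625720, strand -: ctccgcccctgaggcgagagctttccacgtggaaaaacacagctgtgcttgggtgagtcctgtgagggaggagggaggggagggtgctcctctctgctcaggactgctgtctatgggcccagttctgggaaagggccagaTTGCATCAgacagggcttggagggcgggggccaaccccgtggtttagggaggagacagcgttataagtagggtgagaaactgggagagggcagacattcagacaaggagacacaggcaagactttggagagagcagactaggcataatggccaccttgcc

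Slc7a11 promoter, chr3:50443564-50443863, strand -: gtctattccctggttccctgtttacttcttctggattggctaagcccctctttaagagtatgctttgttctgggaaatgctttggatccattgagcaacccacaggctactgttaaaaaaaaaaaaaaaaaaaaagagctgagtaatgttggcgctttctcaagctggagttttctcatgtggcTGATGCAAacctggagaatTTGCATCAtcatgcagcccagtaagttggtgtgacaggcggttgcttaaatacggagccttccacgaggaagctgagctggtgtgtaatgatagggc

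Asns promoter, chr6:7693160-7693459, strand -: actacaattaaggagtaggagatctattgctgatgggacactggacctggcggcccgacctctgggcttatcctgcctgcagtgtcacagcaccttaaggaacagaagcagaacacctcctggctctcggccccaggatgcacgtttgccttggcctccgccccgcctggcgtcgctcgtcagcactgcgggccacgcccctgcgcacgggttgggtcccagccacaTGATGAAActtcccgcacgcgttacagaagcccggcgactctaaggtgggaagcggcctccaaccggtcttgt

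Trib3 promoter, chr2:152344011-152344310, strand -: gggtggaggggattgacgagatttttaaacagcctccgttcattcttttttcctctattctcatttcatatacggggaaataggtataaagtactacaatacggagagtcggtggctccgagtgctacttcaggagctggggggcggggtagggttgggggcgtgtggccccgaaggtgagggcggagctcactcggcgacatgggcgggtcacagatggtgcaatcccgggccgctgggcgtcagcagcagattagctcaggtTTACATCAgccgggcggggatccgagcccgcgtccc

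Among all promoter sequences, 3.97% held these letters. Here and for the elements below, a list gene counted if any of its promoter sequences matched, so shares of genes and of promoters are unlike units. The letters stood in 7 of the 19 tested list members that had a promoter sequence, in 4 of the 7 called genes and in 3 of the 12 that were not called. A match describes the letters only.

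Nupr1, a small stress-induced chromatin protein, measured 7.20, 7.40, 7.32 and 7.87 at 4 months and 6.42, 6.71, 6.98 and 6.33 at 1 month. Slc7a11, the cystine importer that feeds glutathione synthesis, measured 6.66, 6.26, 6.36 and 6.32 at 4 months and 5.59, 5.57, 5.78 and 5.58 at 1 month. Asns, which makes asparagine, measured 9.96, 9.89, 9.89 and 9.76 at 4 months and 9.44, 9.36, 9.46 and 9.39 at 1 month. All 3 were higher in every 4-month array, Nupr1 by 0.84 ± 0.16 (SE, adjusted p = 0.00186), Slc7a11 by 0.77 ± 0.21 (adjusted p = 0.0164, and 0.0563 after quantile normalization) and Asns by 0.47 ± 0.11 (adjusted p = 0.0076). Trib3, a pseudokinase induced under stress, rose by 0.28 ± 0.07 (adjusted p = 0.00963, and 0.0791 with only the arrays of these 2 ages), with a lowest 4-month array of 6.87 against a highest 1-month array of 6.88.

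The other called ATF4 targets lacked the letters in the window examined. They were Mthfd2, a mitochondrial folate enzyme (0.46 ± 0.10, adjusted p = 0.00526), Sesn2, a sensor that restrains mTORC1 (0.29 ± 0.06, adjusted p = 0.00303), and Slc3a2, the heavy chain of the cystine importer (0.19 ± 0.06, adjusted p = 0.0373). The call of Slc3a2 was lost without replicate 2, 3 or 4 of 1 month or replicate 1, 2 or 3 of 4 months (adjusted p of up to 0.0984). On the brightest probe set Mthfd2, Sesn2, Trib3 and Slc3a2 were not called (adjusted p = 0.463, 0.0688, 0.708 and 0.0866), and 3 of the list rose, as also when the lower 50% of genes was left out.

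Chaperones of the endoplasmic reticulum were mixed, with 5 of 23 tested members higher and 1 lower (median 0.07), or 26.1% called against 15.2% of all genes. The rises were 10 with array weights, 10 with the array spread as a covariate and 3 on the brightest probe set. Hspa5, the chaperone BiP, measured 11.52, 11.56, 11.62 and 11.47 at 4 months and 11.21, 10.99, 11.07 and 11.12 at 1 month. It was higher in all 4-month arrays (0.44 ± 0.09 SE, adjusted p = 0.0027). Its promoter is shown with the stress element, 65 bases before the start, in capitals.

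Hspa5 promoter, chr2:34771840-34772139, strand +: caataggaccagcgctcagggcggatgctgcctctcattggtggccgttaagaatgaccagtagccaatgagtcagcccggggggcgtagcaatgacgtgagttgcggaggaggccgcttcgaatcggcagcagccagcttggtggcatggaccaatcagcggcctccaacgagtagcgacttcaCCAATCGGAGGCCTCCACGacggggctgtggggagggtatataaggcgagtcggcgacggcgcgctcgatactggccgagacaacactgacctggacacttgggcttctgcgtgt

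That 19-base pattern stood in 0.119% of all promoters, in 3 of the 5 called higher (Hspa5, Dnajc3 and Pdia6) and in 6 of the 14 not called. Sdf2l1, a cofactor of BiP, rose by 0.44 ± 0.07 (adjusted p = 0.000301, and 0.482 on its brightest probe set), and Herpud1, of the degradation machinery, by 0.27 ± 0.06 (adjusted p = 0.00303). The calls of Dnajc3, an inhibitor of PERK (0.27 ± 0.08), and Pdia6, a disulfide isomerase (0.21 ± 0.07), were lost without each of several arrays, so that 3 of the list rose without replicate 1, 2 or 3 of 1 month or replicate 2 or 3 of 4 months. Dnajb11, another BiP cofactor, fell by 0.30 (SE 0.07, adjusted p = 0.00647).

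Both metallothioneins that respond to metals and stress in most tissues were higher. Mt2 measured 10.03, 9.10, 9.58 and 8.75 at 4 months and 8.08, 7.38, 7.95 and 7.91 at 1 month. Mt1 measured 11.73, 11.36, 11.45 and 11.57 at 4 months and 10.78, 10.74, 11 and 10.74 at 1 month. Mt2 was the more variable and the more changed (1.53 ± 0.22 SE, adjusted p = 0.000144), Mt1 the brighter probe sets and the smaller change (0.71 ± 0.10, adjusted p = 0.000123), and the ages did not overlap in either. Their coding sequences are alike, so probes may read both. The remaining 10 tested genes of zinc handling were not called. In the list as a whole 2 of 12 were called, or 16.7%, near the 15.2% of all genes (median 0.06). The core of the metal response element (letters TGCGCNC) stands in capitals in the Mt2 promoter, where it occurred 2 times. Among all promoters 15.4% held it, and so did both called genes and 4 of the 9 genes of the list that were not called.

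Mt2 promoter, chr8:94172368-94172667, strand +: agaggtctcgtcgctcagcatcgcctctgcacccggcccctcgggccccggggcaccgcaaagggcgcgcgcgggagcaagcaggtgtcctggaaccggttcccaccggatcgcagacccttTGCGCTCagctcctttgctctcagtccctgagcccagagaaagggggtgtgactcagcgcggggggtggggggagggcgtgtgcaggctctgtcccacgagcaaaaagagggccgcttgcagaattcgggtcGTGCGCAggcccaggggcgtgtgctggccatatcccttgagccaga

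Of 35 tested antioxidant and glutathione genes 4 rose and 0 fell (median 0.08), or 11.4% called, where 6.9% of all genes rose. The rises were led by Prdx6, a peroxiredoxin (0.60 ± 0.07, adjusted p = 1.77e-05), and Gstt1, a glutathione transferase (0.56 ± 0.10, adjusted p = 0.00105). Cytosolic heat shock genes gave 0 rises and 1 fall among 21 tested, the respiratory chain 1 rise and 1 fall among 56, or 3.57%, and the constitutive proteasome 1 rise among 30, or 3.33%. These shares were below the 15.2% of all genes. With 1 array left out the heat shock list gave up to 1 rise (without replicate 3 of 4 months) and 2 falls (without replicate 1 of 4 months), and the proteasome list 2 rises without replicate 4 of 4 months. The respiratory chain list gave 2 rises without replicate 1 of 4 months, no rise without replicate 3 or 4 of 1 month or replicate 2 or 4 of 4 months, and no fall without each array except replicate 1 of 4 months.

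Of 38 tested genes of endothelial cells and pericytes 11 fell and 2 rose, where 8.26% of all genes fell and 6.9% rose (median -0.12). Slco1a4, a transporter of the blood-brain barrier in mouse, measured 7.09, 6.75, 6.74 and 6.07 at 4 months and 7.74, 7.63, 7.44 and 7.80 at 1 month. Cldn5, a tight junction protein of endothelium, measured 5.88, 6.39, 6.32 and 6.39 at 4 months and 7.47, 7.04, 7.19 and 7.05 at 1 month. Both lay lower in every 4-month array, Slco1a4 by 0.99 (SE 0.20, adjusted p = 0.00244) and Cldn5 by 0.94 (SE 0.21, adjusted p = 0.00452).

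Itm2a, an endothelial membrane protein, fell by 0.77 (SE 0.12, adjusted p = 0.000272), and Tek, the angiopoietin receptor, by 0.62 (SE 0.09, adjusted p = 0.000144). Flt1, the VEGF receptor that Pgf binds, went the other way (0.56 ± 0.08, adjusted p = 0.000165), with all 33 probe sets higher. With any 1 array left out 8 to 11 of the vessel genes fell. In other settings 7 fell with the arrays of these 2 ages alone, 4 when the lower 50% of genes was left out, and 3 on the brightest probe sets.

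Collagens, laminins and their partners moved both ways, with 4 of 42 tested members higher and 5 lower, or 21.4% called against 15.2% of all genes. Lower were Col6a1 (-0.70 ± 0.14), Sparc, a collagen-binding protein (-0.48 ± 0.06), Nid1, nidogen of basement membranes (-0.45 ± 0.08), and Col4a1, a basement membrane collagen (-0.44 ± 0.06). Higher were Col15a1 (0.59 ± 0.11) and Col4a6 (0.50 ± 0.07). Of these 6 only Sparc kept its call on the brightest probe set, where Col4a1 turned to 0.25 and Col6a1, Nid1, Col15a1 and Col4a6 gave adjusted p of 0.414, 0.729, 0.843 and 0.628. The 4 rises were 2 without replicate 1 or 2 of 1 month or replicate 1, 2 or 3 of 4 months, and 13 members fell once the array spread entered the fit as a covariate.

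Genes known from the lens also differed between these arrays. Whether their RNA came from lens tissue or from the retina was not tested. Cryaa, the alpha-A crystallin, measured 6.65, 6.25, 6.36 and 7.16 at 4 months and 9.18, 9.74, 9.06 and 8.58 at 1 month, and was lower by 2.54 (SE 0.49, adjusted p = 0.00173), the largest fall of all named genes. Of 11 tested crystallins 3 fell and 0 rose, or 27.3% called against 15.2% of all genes. Crybb1 was lower by 0.87 (SE 0.15, adjusted p = 0.000766) and Crygs by 1.08 (SE 0.32, adjusted p = 0.0283). Crygs was lost without replicate 2 of 1 month or replicate 2 or 3 of 4 months (adjusted p of up to 0.108). On the brightest probe set 0 crystallins fell, with Crybb1 at -0.33 (adjusted p = 0.0797) and Crygs at -0.1 (adjusted p = 0.556). The falls were 5 with quantile normalization, 6 with array weights and 6 with the array spread as a covariate. The mean level of the lens list was 6.42 to 6.93 at 4 months and 6.90 to 7.34 at 1 month, with the lowest 1-month value in replicate 4. Of 18 tested genes of pigment cells and pigment epithelium 3 rose and 0 fell (median 0.02), or 16.7% called against 15.2% of all genes. With 1 array left out 2 or 3 rose. For other members of this list the call depended on the arrays fitted. Pmel, Dct and Tyrp1 were lower in every 4-month array than in every 1-month array, with differences of -0.68 ± 0.33, -0.57 ± 0.60 and -0.49 ± 0.44, and were not called in the fit over all ages (adjusted p = 0.184, 0.579 and 0.501). With the arrays of these 2 ages alone all 3 were called lower (adjusted p = 0.00911, 0.0187 and 0.0144), while the brightest probe sets of Pmel and Tyrp1 gave 0.07 and 0.21. The mean of the 18 tested genes of pigment cells and pigment epithelium was 7.45 to 7.76 at 4 months and 7.51 to 7.75 at 1 month. Of 2 tested red blood cell genes Alas2, the heme synthesis enzyme of erythroid cells, fell by 0.46 (SE 0.09, adjusted p = 0.00223), but its brightest probe set was higher at 4 months (0.57, adjusted p = 0.015). The 7 tested genes of cornea, iris, ciliary body and muscle had differences of -0.18 to 0.27 and were not called. The part of these tissues in the vessel and matrix results was not tested.

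Of 43 tested potassium channel genes 7 rose and 1 fell, or 18.6% called against 15.2% of all genes. Of 26 tested sodium and calcium channel genes 5 rose and 3 fell, or 30.8%, with a median difference of -0.02. The 5 rises, Scn7a among them, were 3 without replicate 3 or 4 of 1 month or replicate 2, 3 or 4 of 4 months, 3 with the arrays of these 2 ages alone and 2 on the brightest probe set. Kcnk1, a leak channel, rose by 0.53 ± 0.06 (adjusted p = 3.02e-05), Kcna5, a voltage-gated channel, by 0.38 ± 0.06 (adjusted p = 0.000239), and Kcnj10, the main potassium channel of Muller glia, by 0.36 ± 0.07 (adjusted p = 0.00126). Kcnip2, a partner of A-type channels, measured 7.5, 7.74, 7.58 and 7.38 at 4 months and 8.68, 8.11, 8.05 and 8.16 at 1 month. It fell by 0.70 (SE 0.12, adjusted p = 0.000728) over its 11 probe sets, of which 3 pointed upwards, and the brightest gave 0.31.

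**Figure D4:**
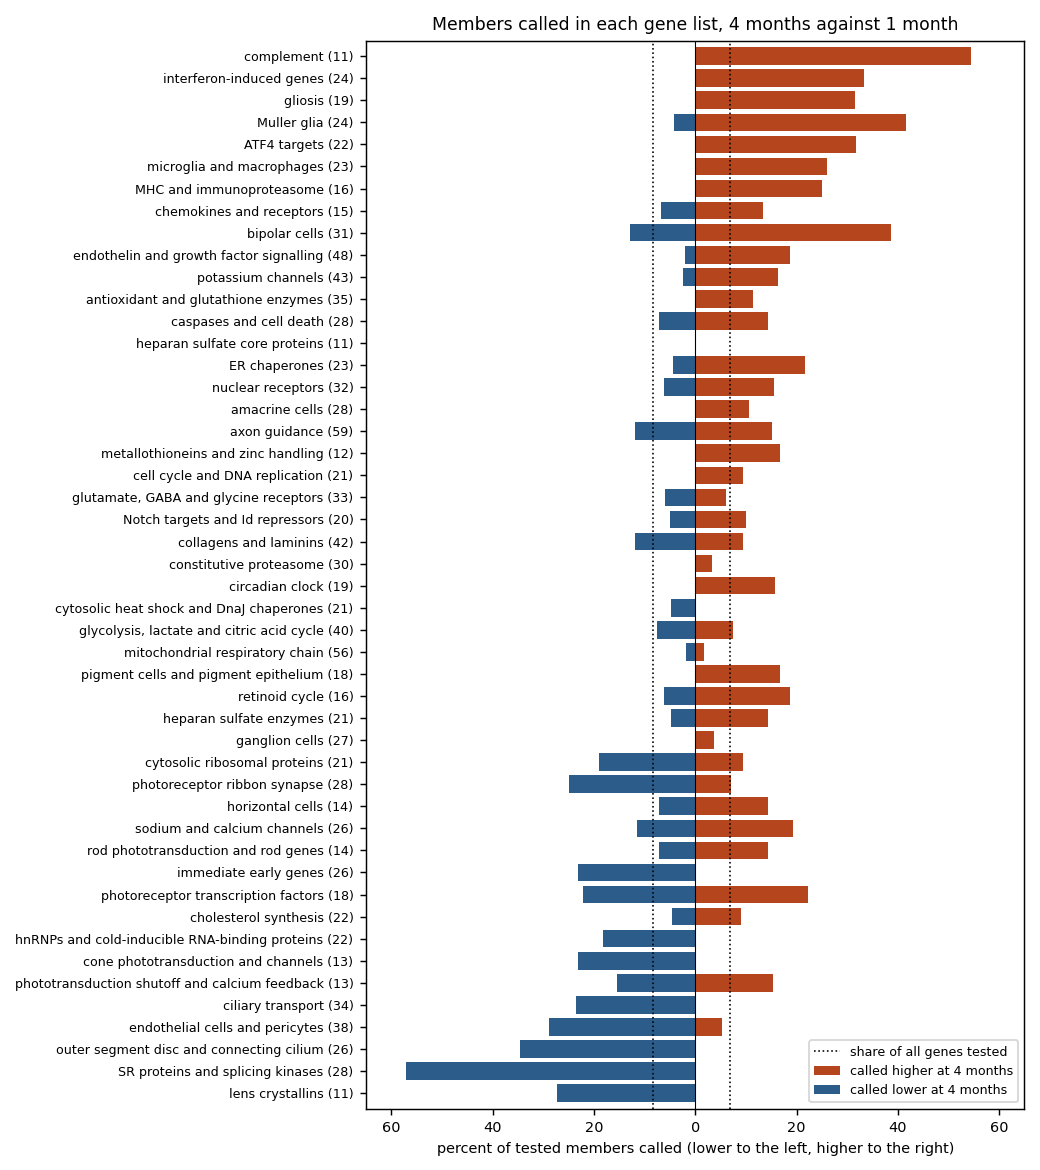
Share of each gene list called at 4 months against 1 month, for lists with at least 10 tested genes (number tested in brackets). Red bars to the right give the percent of members called higher and blue bars to the left the percent called lower. Dotted lines mark the share of all genes, 6.9% higher and 8.26% lower. Lists are ordered by their median difference, from complement at the top to lens crystallins at the bottom, and the bar of the splicing list reaches furthest to the left, with 16 of 28 members.

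The other ages show when these levels were reached. At 4 months against 2 months 15 genes passed (0.127%), 9 higher (0.076%) and 6 lower (0.0507%), and with any 1 array of these ages left out 1 to 12 did. Leaving out replicate 1, 2 or 4 of 2 months gave 7, 7 and 2 genes, leaving out replicate 3 of 2 months 1 gene and leaving out replicate 2 of 4 months 7 genes. Hs6st2 was higher at 4 than at 2 months by 0.57 (adjusted p = 0.00155), Shisal2b by 0.66 (adjusted p = 0.0139) and Car8 by 0.35 (adjusted p = 0.0127), while Pde6b was lower by 0.59 (adjusted p = 0.0457) and Moxd1 by 0.47 (adjusted p = 0.0139). The Y-linked gene Eif2s3y, which is read in males, was among the 15, with means of 7.70 at 4 months and 3.94 at 2 months, so in that comparison age cannot be told apart from sex. At 4 months (7.70 ± 0.13) against 1 month (8.63 ± 0.29) it was not called in the fit over all ages (adjusted p = 0.352), but was called lower with the arrays of these 2 ages alone (adjusted p = 0.00559).

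At 6 months against 4 months the count by limma was 0 genes (0%), and 1 gene was called when dim genes were kept. An unadjusted p below 0.05 was seen in 531 of the 11836 genes tested, no more than that threshold gives by chance. At 10 months against 4 months 2592 genes were called (21.9%), 1213 higher (10.2%) and 1379 lower (11.7%). The means below share the 4-month arrays between comparisons and are given side by side. Srsf5 measured 11.55 at 1 month, 10.60 at 2 months, 10.45 at 4 months, 10.68 at 6 months and 9.84 at 10 months. Rpgrip1 measured 10.15, 9.38, 9.32, 9.40 and 9.20, and Cacna1f 10.83, 10.29, 10.33, 10.33 and 10.34, at the same ages. In these 3 genes the 2-month mean lay near the 4-month mean.

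Hs6st2 measured 6.54 at 1 month, 7.59 at 2 months, 8.16 at 4 months, 8.25 at 6 months and 8.56 at 10 months, and Car8 10.73, 11, 11.36, 11.31 and 11.37, with 2-month means between those of 1 and 4 months. Nxnl2 measured 9.74, 9.35, 9.05, 8.90 and 8.27 and was lower again at 10 months against 4 months (-0.78, adjusted p = 4.23e-07). Ift122 (-0.51, adjusted p = 7.09e-07), Prdm1 (-0.64, adjusted p = 0.000387) and Pde6b (-0.40, adjusted p = 0.0159) were also lower at 10 months than at 4 months. Hspa5 measured 11.10, 11.66, 11.54, 11.54 and 10.85 and fell at 10 months against 4 months (-0.70, adjusted p = 3.54e-05). Egr1 measured 8.85, 7.99, 8.30, 8.12 and 9.24 and was higher at 10 months than at 4 months (0.94, adjusted p = 5.04e-05), and Mt2 was higher too (1.34, adjusted p = 0.00028). Opn1mw, not called at 4 months against 1 month, was lower at 10 months against 4 months (-0.36, adjusted p = 0.000312).

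**Figure D5:**
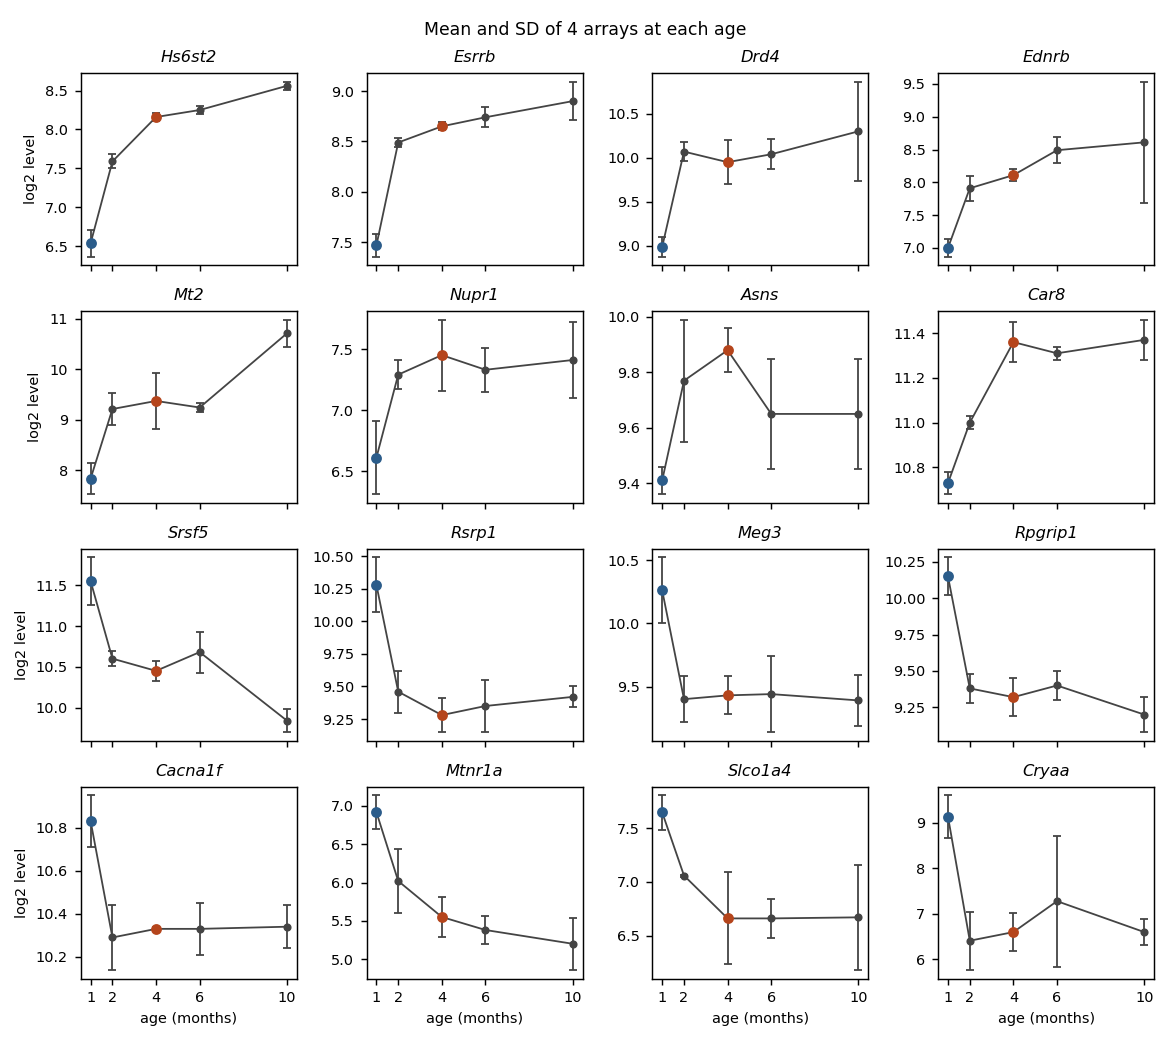
Mean log2 level ± SD of 4 arrays at each of the 5 ages, in months on the x axis, for 16 genes. The red point marks 4 months and the blue point 1 month. Srsf5, Rsrp1, Meg3, Rpgrip1, Cacna1f and Cryaa are already near their 4-month mean at 2 months, and Hs6st2 and Car8 lie midway there.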

How the data were processed

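The 20 arrays (4 mice at each of 5 ages) were read from 1 table of log2 values per exon probe set, deposited by the authors and made with RMA per the submitters' processing notes; its version, background settings and genome build were not given in the sources used here. RMA normalizes between arrays, so a shift common to all genes is not visible. Probe sets were assigned to genes through the platform annotation with symbols updated from RefSeq: of 194293 probe sets 179496 had 1 symbol, 1328 had several and 13469 had none, and those without exactly 1 were left out. Each of 15781 genes (median 9 probe sets, 802 with 1) was summarised by median polish, and the lowest 25% (log2 5.61) were not tested. limma 3.58.1 in R 4.3.3 fitted 1 mean per age over all 20 arrays (15 residual degrees of freedom), with Benjamini-Hochberg adjustment over 11836 genes and a threshold of 0.05. The procedure was tested on simulated data. The number of arrays limits the precision.

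Alternatives were the gene summary, the filter, the scaling, array weights, the eBayes setting, the 2 ages alone, a replicate block, a 1.5-fold minimum and each array left out. A fit with the array spread as a covariate was added after seeing the data. The labels do not say that replicate numbers pair the mice. The deviations of same-numbered 4-month and 1-month arrays correlated at 0.563, -0.01, -0.373 and -0.132. Those of differently numbered arrays ranged as widely, from -0.612 to 0.617, so these values cannot tell whether the numbers mark a shared block. The labels name no batch, hour or sex. Genes named were those with the largest called differences without overlap, up to 6 per list, and fixed controls, and fewer were named than the rule allows. The gene lists and comparisons were chosen with earlier results of these data known. Promoters are from RefSeq (GRCm38.p6). Figures were drawn with matplotlib 3.10.9.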

Additional observations from a re-analysis of the deposited data

Results flagged for a closer look

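In 18 of 276 groups of 4 arrays examined, 1 array lay far from the other 3 for its age, where chance gives about 1 in 20. Replicate 4 of 4 months was that array for Drd4 (10.33, the others 9.77 to 9.86), Nrl (6.53, the others 6.09 to 6.15), Pcp4l1 (9.5, the others 9.25 to 9.26), Cacnb2 (9.88, the others 10.07 to 10.08), Cntfr (9.76, the others 9.83 to 9.84) and Eif2s3y (7.5, the others 7.74 to 7.77). Among the other 4-month arrays, Cldn5 was low in replicate 1 (5.88, the others 6.32 to 6.39), Alas2 high in replicate 2 (5.96, the others 5.69 to 5.73) and Mthfd2 low in replicate 3 (7.37, the others 7.60 to 7.64).

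At 1 month, replicate 3 was low in Hs6st2 (6.28, the others 6.59 to 6.66), Glce (7.28, the others 7.5 to 7.54) and Pcp4l1 (8.82, the others 8.99 to 9.01). The same array was high in Drd4 (9.16, the others 8.94), Fgf2 (8.45, the others 8.25 to 8.28) and Slc7a11 (5.78, the others 5.57 to 5.59). Ttc8 was high in replicate 1 (10.20, the others 10.09 to 10.11), Plxnd1 low in replicate 2 (7.97, the others 8.08 to 8.09) and Pfkfb2 low in replicate 4 (10.29, the others 10.32).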

How the results depend on the processing

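The 1795 calls at 4 months against 1 month (817 higher, 978 lower) became 840 (385 higher, 455 lower) on the brightest probe set, 1049 (451 and 598) with the arrays of the 2 ages alone, 3022 (1365 and 1657) with array weights, 2717 (1398 higher) with the spread covariate and 170 (72 and 98) with a 1.5-fold minimum. With 1 array left out they were 1338 to 1776 (591 to 828 higher, 668 to 989 lower). The replicate block gave 1547 calls (687 higher, 860 lower), 2274 at 10 against 4 months, 11 at 4 against 2 months and 0 at 6 against 4 months, and among named genes it lost only Slc3a2 (adjusted p = 0.0563) and Pdia6 (adjusted p = 0.0638). The 15 calls at 4 against 2 months became 4 on the brightest probe set, 9 without the filter, 111 with array weights, 5 with 2 ages, 25 with the spread covariate, 6 with the 1.5-fold minimum and 1 to 12 with 1 array left out. The 0 calls at 6 against 4 months became 1 without the filter. The 2592 at 10 against 4 months became 1077 on the brightest probe set, 1100 with 2 ages and 183 with the 1.5-fold minimum, and 2055 to 2722 with 1 array left out. The cause of these shifts was not tested. The direction turned on the brightest probe set for Mef2c (-0.02), Kcnip2 (0.31), Col4a1 (0.25), Alas2 (0.57), Pmel (0.07) and Tyrp1 (0.21). Among genes not called, the direction also turned for Nrl with the mean of the probe sets (0.05) and with 1 array left out (-0.11 to 0.05). It turned for Opn1sw with the spread covariate (0). For Gnat2 it turned with quantile normalization (0.05), array weights (0.02), the spread covariate (0.01) and 1 array left out (-0.03 to 0.01). For Atf4 it turned with 1 array left out (-0.05 to 0.07).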

Other observations

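Of 40 tested genes of glycolysis, lactate and the citric acid cycle 3 were higher and 3 lower, or 15%, near the 15.2% of all genes. Pdk1, a kinase that holds pyruvate back from mitochondria, rose by 0.35 ± 0.09 (SE, adjusted p = 0.0105), and Pfkfb3, which raises the activator of phosphofructokinase, by 0.29 ± 0.07 (adjusted p = 0.0113). Pfkfb2, another enzyme of that family, fell by 0.28 (SE 0.06, adjusted p = 0.00305), but not on its brightest probe set (adjusted p = 0.153). Among 28 tested cell death genes 4 rose and 2 fell, or 21.4% called against 15.2% of all genes. There were 2 rises when replicate 1 of 1 month or replicate 4 of 4 months was left out, and 1 fall without replicate 3 or 4 of 4 months. Bok, of the BCL2 family, rose by 0.37 ± 0.08 (adjusted p = 0.00474), Tnfrsf1a, a tumour necrosis factor receptor, by 0.35 ± 0.09 (adjusted p = 0.00944), and Parp1, a DNA damage sensor, fell by 0.32 (SE 0.07, adjusted p = 0.00384). None of these 3 was called on the brightest probe set (adjusted p = 0.284, 0.2 and 0.503).

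Axon guidance genes also moved both ways, 9 higher and 7 lower of 59 tested (27.1%), and 3 higher and 3 lower with only the arrays of these 2 ages. Ephb1, an ephrin receptor, rose by 0.45 ± 0.08 (adjusted p = 0.000598), while Epha8, of the other ephrin receptor class, fell by 0.43 (SE 0.09, adjusted p = 0.00234). The semaphorin receptors Plxnc1 (0.38 ± 0.09, adjusted p = 0.00621) and Plxnd1 (0.35 ± 0.05, adjusted p = 0.000316) rose, and the ligand Sema4g fell by 0.36 (SE 0.07, adjusted p = 0.00187). Plxnc1 was not called with only the arrays of these 2 ages (adjusted p = 0.0589), and Plxnd1 and Sema4g were not called on the brightest probe set (adjusted p = 0.337 and 0.277). The rises were 4 without replicate 3 of 1 month and 5 without replicate 3 of 4 months, and the falls 3 without replicate 1 of 1 month and 4 when replicate 3 of 1 month, or replicate 1 or 2 of 4 months, was left out. Ccnd1, a cyclin that Muller glia can use to re-enter the cell cycle, rose by 0.32 ± 0.07 (adjusted p = 0.00328, and 0.0872 on its brightest probe set).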
